A study of Mus musculus with 4 samples.

Results

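The 35 genes described here belong to the unfolded protein response of the endoplasmic reticulum (ER) and the integrated stress response, out of 32285 genes in each deposited matrix. They were taken by symbol from a fixed list: 14 ER chaperones and folding enzymes, 7 genes of ER-associated degradation, 4 sensors and signal genes, and 10 Atf4-type genes. Pituitary cells came from male C57BL/6J mice, wild-type throughout, and were profiled by single-cell RNA-seq after 12 weeks on either of 2 diets, control (CTRL) or high-fat (HFD). Each diet had 2 libraries, called CTRL 1, CTRL 2, HFD 1 and HFD 2. Glands were digested separately, per the series' design text, but the sources used here do not give the number of glands in a library, the age of the mice or the fat content of the diets. All mice were otherwise alike in genotype, strain and sex. The p-values below therefore measure only the spread between these libraries, which may be technical.

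Hormone cells fold large amounts of secreted protein in the ER. When unfolded protein builds up there, the sensors Ern1 (IRE1), Atf6 and Eif2ak3 (PERK) are activated: IRE1 splices Xbp1 mRNA, Atf6 is cut into a transcription factor, and PERK phosphorylates the translation factor eIF2α. Xbp1 and Atf6 raise chaperones and degradation genes, whereas phosphorylated eIF2α favours translation of Atf4, which raises genes of amino acid supply and stress. Other kinases of eIF2α start the same Atf4 branch without ER stress, and this wider network is the integrated stress response. Counts of 3′ ends show neither Xbp1 splicing nor protein cleavage nor phosphorylation, so only transcript levels are described.

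Motif matches in the proximal promoters are shown because 1 motif was found in chaperone windows and not in Atf4-type windows, and another the other way round, although many windows of both groups held neither. RefSeq promoter windows (GRCm38.p6, 250 bases before to 50 bases after a start) were found for 31 of the 35 members, and both strands were searched. The ER stress element (ERSE), searched as CCAAT, 9 bases of any kind and CCACG, is the letter pattern known to bind Atf6 with the factor NF-Y. It was in 7 of 12 chaperone windows (58.3%) and in 2 of 7 windows of degradation genes (28.6%), against 0.119% of all 32851 windows. None of the 3 windows of sensors and none of the 11 windows of Atf4-type genes held it. The matches are printed 5′ to 3′ in the direction of the motif with 5 bases on each side. The letters of the motif are in capitals, and the sign after the coordinates is the strand printed.
Hspa5, chr2:34772020-34772048 (+): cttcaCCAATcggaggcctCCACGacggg
Hsp90b1 upstream match, chr10:86705633-86705661 (-): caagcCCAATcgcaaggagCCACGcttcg
Hsp90b1 downstream match, chr10:86705528-86705556 (+): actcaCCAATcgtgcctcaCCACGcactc
Calr, chr8:84847070-84847098 (+): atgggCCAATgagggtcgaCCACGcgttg
Canx, chr11:50325795-50325823 (-): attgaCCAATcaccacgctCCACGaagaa
Pdia6, chr12:17266486-17266514 (+): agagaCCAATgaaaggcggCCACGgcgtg
Dnajc3, chr14:118937822-118937850 (+): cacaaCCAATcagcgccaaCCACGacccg
Creld2, chr15:88819515-88819543 (-): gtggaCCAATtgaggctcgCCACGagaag
Derl3, chr10:75893237-75893265 (-): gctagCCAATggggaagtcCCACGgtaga
Syvn1, chr19:6046527-6046555 (+): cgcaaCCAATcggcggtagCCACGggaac
Hspa5 also held TGACGTG, a core of the unfolded protein response element (UPRE), which was in 2.01% of all windows; this match began 157 bases before its start and the ERSE 65 bases before it. ERSE-II, searched as ATTGG, 1 base of any kind and CCACG, was in the windows of Herpud1 and Dnajb11 and in 0.0365% of all windows.

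The C/EBP-Atf response element, searched as TGATGNAA (CARE), is the pattern through which Atf4 is known to act. It was in 4 of 11 windows of Atf4-type genes (36.4%), in 1 of 7 windows of degradation genes and in none of the 12 chaperone windows or 3 sensor windows, against 3.97% of all windows. The carriers were Chac1, Trib3, Asns and Slc7a11, with Herpud1 among the degradation genes. The Trib3 match lay just after its start and is left out below.
Chac1, chr2:119351044-119351061 (-): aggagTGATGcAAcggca
Asns, chr6:7693220-7693237 (-): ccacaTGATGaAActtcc
Slc7a11 upstream match, chr3:50443667-50443684 (-): gtggcTGATGcAAacctg
Slc7a11 downstream match, chr3:50443648-50443665 (+): catgaTGATGcAAattct
Herpud1, chr8:94386312-94386329 (-): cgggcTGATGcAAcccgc
Herpud1 was the member whose window held both an ER stress motif and a CARE match. The stretch from 120 to 36 bases before its start, with both matches in capitals, was as follows.
Herpud1, chr8:94386309-94386393 (+): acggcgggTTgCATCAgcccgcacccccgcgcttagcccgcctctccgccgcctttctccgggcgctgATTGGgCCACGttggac
A match describes letters and shows no binding, and the absence of a match concerns only these windows.

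The deposited barcodes held 74758237 to 101903367 unique molecular identifiers (UMIs, 1 per captured molecule) per library, and 4347 to 6927 cells per library were kept, 23975 in all. Median UMIs per kept cell ran from 10109 in HFD 1 to 18010 in CTRL 1. HFD 1 stood apart: it shared 3116 cell barcodes with HFD 2 and 1423 with CTRL 2, whereas every other pair of libraries shared 14 to 22. In HFD 1, 3102 of those shared with HFD 2 were low copies, with a median of 5.58% of the UMIs of the other copy. Shared barcodes with under 20% of the UMIs of their other copy were left out (4519 in all, 1924 of them otherwise passing as cells, 1833 of these in HFD 1), a choice made after seeing the data. Values with them kept, or without HFD 1, are given where they change a call or move a named difference by over 1.5 times.

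Cells were grouped into 18 clusters and named from marker genes, with "-like" because the names rest on RNA alone. The 10 classes with at least 30 cells in every library ranged from 8794 somatotrope-like cells (growth hormone) and 5207 lactotrope-like cells (prolactin) to 516 macrophage-like cells. Levels are given as CPM, the UMIs of a gene per 1000000 UMIs of the class, so they carry no term for gene length. Classes were built from the same cells, so levels between classes are descriptions without a test. Gonadotrope-like cells also held somatotrope markers, summed at 24150, 5668, 3802 and 7169 CPM in CTRL 1, CTRL 2, HFD 1 and HFD 2, and lactotrope markers at 4970, 5770, 731.4 and 2600 CPM; their part in the results was not tested.

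The class highest in summed chaperone members was lowest in summed Atf4-type members. Summed over the 14 chaperone members, gonadotrope-like cells, which make luteinizing and follicle-stimulating hormone, were highest at 6876 ± 182.7 CPM (SD, n = 4 libraries). Lactotrope-like cells followed at 5168 ± 306.9 CPM and thyrotrope-like cells (thyroid-stimulating hormone) at 5142 ± 443.9 CPM, and these neighbours did not differ beyond their spread. Somatotrope-like cells were lowest at 3060 ± 117.8 CPM. For the 10 Atf4-type members gonadotrope-like cells were lowest at 278.4 ± 54.84 CPM and stem-like (folliculostellate) cells highest at 1549 ± 203.8 CPM. Endothelial-like cells stood at 1244 ± 307.5 CPM, mesenchymal-like cells at 1186 ± 464.7 CPM and macrophage-like cells at 1172 ± 98.07 CPM, so these non-hormone classes overlapped. Hormone mRNAs (Gh, Prl, Pomc, Cga, Fshb, Lhb and Tshb) took 38.7% of the UMIs of somatotrope-like cells on average and 1.04% of those of endothelial-like cells, and a CPM falls as that share rises. Corticotrope-like cells had a share of 7.9% and 3806 CPM of chaperone members. With hormone UMIs left out somatotrope-like cells would stand above them, so their bottom place in the chaperone sum depended on the hormone share.

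**Figure D1:**
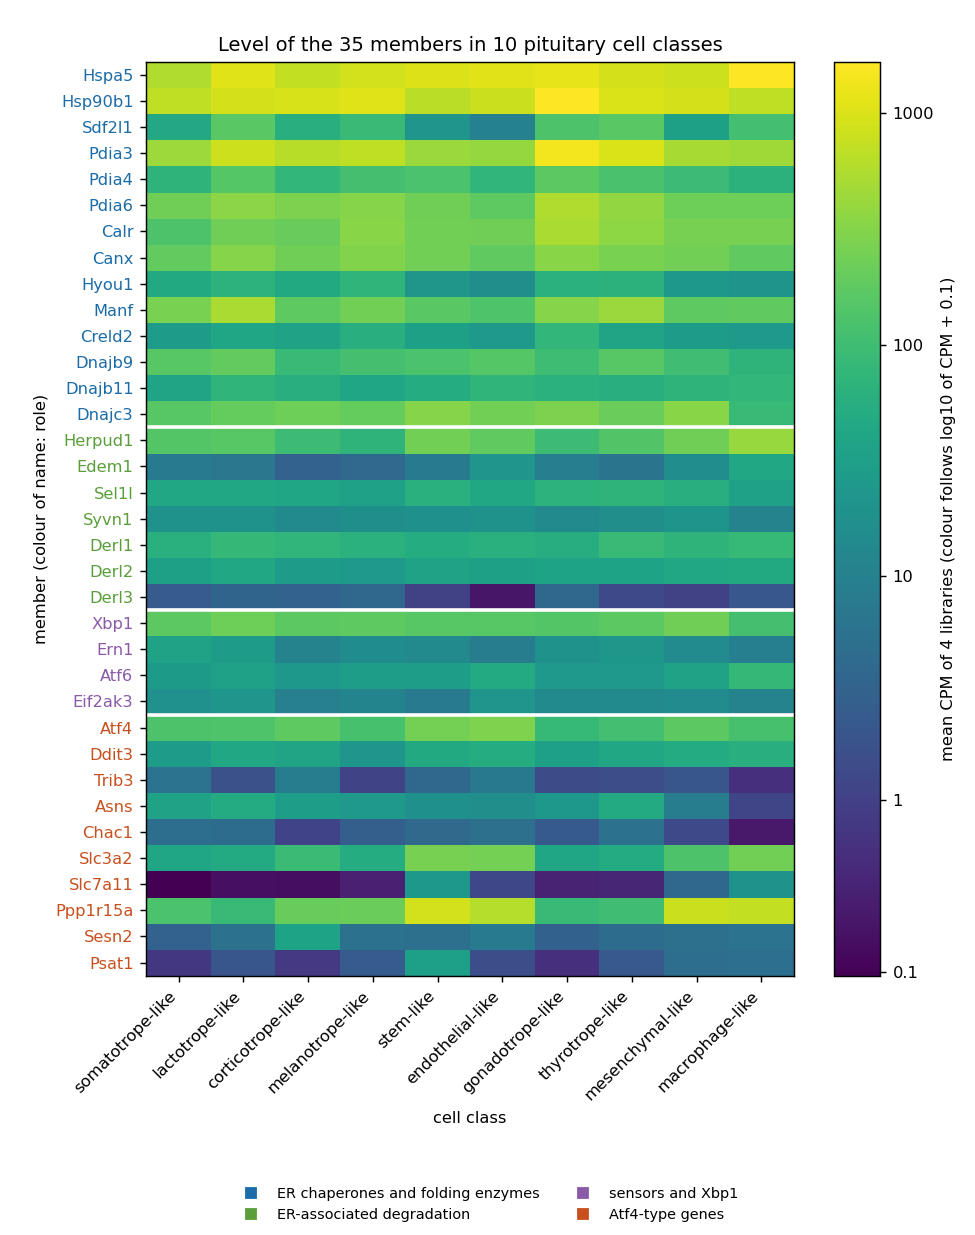
Mean CPM of the 4 libraries for each of the 35 members (rows, names coloured by role) in 10 cell classes (columns), on a log colour scale. Chaperones such as Hsp90b1 (1617 CPM) were brightest in the gonadotrope-like column, and Ppp1r15a (904.6 CPM) in the stem-like column.

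Among chaperones, Hspa5 (BiP, the main Hsp70 of the ER, chr2:34771970-34777547 in GENCODE vM21 on mm10) was highest in macrophage-like cells, at 1860, 1511, 1709 and 1582 CPM in CTRL 1, CTRL 2, HFD 1 and HFD 2. In gonadotrope-like cells it stood at 1217, 1242, 1133 and 1153 CPM, below every macrophage-like library. Somatotrope-like cells were lowest at 544.2, 661, 532.7 and 526.1 CPM, under every corticotrope-like library (697 to 771.3 CPM). Without the hormone genes the mean in somatotrope-like cells was 926.6 CPM against 797.1 CPM in corticotrope-like cells, so the place of somatotrope-like cells at the bottom depended on their hormone share. Endothelial-like libraries ranged from 751.3 to 1597 CPM, which spans most of the other classes.

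Hsp90b1 (Grp94, the Hsp90 of the ER) was highest in gonadotrope-like cells at 1658, 1675, 1543 and 1592 CPM, with no overlap with the melanotrope-like libraries next in order (1008 to 1197 CPM). Pdia3 and Pdia6, which form disulfide bonds, and Calr, which holds glycoproteins during folding, also had their highest means in gonadotrope-like cells, at 1443, 568.9 and 535.3 CPM. Manf and Dnajb9 were highest in lactotrope-like cells, at 521.3 and 188.5 CPM. Sdf2l1, a partner of the BiP system, had the widest range of the chaperones, 15.6-fold between thyrotrope-like (162.8 CPM) and endothelial-like cells (10.41 CPM). In the endothelial-like class it was under 10% of its highest level, where RNA set free by broken cells cannot be told apart from expression.

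Degradation members clear misfolded protein from the ER. Herpud1, a membrane adaptor, was highest in macrophage-like cells at 366.4, 468.4, 385.4 and 426.1 CPM and lowest in melanotrope-like cells (65.39 to 75.85 CPM). Edem1, which marks misfolded glycoproteins for removal, was likewise highest in macrophage-like cells (43.57 CPM) and lowest in corticotrope-like cells (3.242 CPM). Derl1, a channel component, varied little, from 52.17 CPM in stem-like to 90.73 CPM in thyrotrope-like cells. Syvn1, the ubiquitin ligase Hrd1, stayed between 11.14 and 20.75 CPM.

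The sensor transcripts were modest in all classes. Xbp1 was highest in mesenchymal-like (181.4 to 292.8 CPM) and lactotrope-like libraries (198.1 to 238.8 CPM), which overlapped, and lowest in macrophage-like libraries (102 to 122.3 CPM). Atf6 was highest in macrophage-like cells, the class lowest in Xbp1, with 68.03, 71.63, 88.39 and 88.85 CPM, above every other class. It was lowest in corticotrope-like cells (24.27 CPM). Ern1 was highest in somatotrope-like cells (35.47 CPM) and Eif2ak3 in lactotrope-like cells (22.71 CPM).

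Of the 10 Atf4-type members 4 (Ppp1r15a, Slc3a2, Slc7a11 and Psat1) had their highest mean in stem-like cells. Ppp1r15a (Gadd34, which returns phosphorylated eIF2α to its resting state) was highest in stem-like cells at 883.4, 1075, 748.5 and 911.1 CPM and lowest in lactotrope-like cells at 92.59, 87.41, 87.38 and 78.63 CPM, where it overlapped with gonadotrope-like libraries (58.23 to 121.9 CPM). Mesenchymal-like libraries of the same diet differed widely, at 417.9 and 1216 CPM on CTRL and 497.3 and 1086 CPM on HFD. Atf4 itself was highest in endothelial-like libraries (201.2 to 397.6 CPM), which overlapped with the stem-like ones (194 to 307.3 CPM), and lowest in gonadotrope-like libraries (65.2 to 106.3 CPM). The stem-like class held 2 clusters that differed in these genes: Ppp1r15a averaged 993.8 CPM in cluster 8 and 56.92 in cluster 13, the latter below the lactotrope-like mean, and Atf4 averaged 272 and 69.62 CPM. The summed Atf4-type members stood at 1671 CPM in cluster 8 and 397.9 in cluster 13, so the high level of the class was that of cluster 8. Psat1 (32 and 39.64 CPM) and Slc7a11 (22.85 and 30.02 CPM) were not lower in cluster 13. Immediate-early genes summed to 39940 and 4045 CPM in the same clusters, and their part was not tested.

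Psat1, Slc7a11 and Sesn2 were concentrated in 1 or 2 classes. Psat1, an enzyme of serine synthesis, was at 31.15, 28.49, 34.51 and 35.26 CPM in stem-like cells and at most 9.087 CPM in any library of the other 9 classes. Slc7a11, the cystine carrier, was at 16.01 to 33.46 CPM in stem-like and 10.1 to 28.65 CPM in macrophage-like cells, and at most 2.117 CPM in any library of the hormone classes and endothelial-like cells. Mesenchymal-like cells came next after macrophage-like cells, and their mean was not under 10% of the stem-like mean. Sesn2, a stress-induced regulator of mTOR signalling, stood at 40.62, 39.52, 31.07 and 36.23 CPM in corticotrope-like cells, where no other class passed 12.17 CPM in a library. Asns (asparagine synthetase) was broad: it was highest in lactotrope-like cells (47.03 to 53.98 CPM) and was detected in macrophage-like cells in CTRL 1 alone, at 4.774 CPM. These 4 patterns were described because the levels had been seen.

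The remaining members spanned these ranges of class means. Pdia4 ran from 65.18 to 169.1 CPM, Canx from 184.2 to 328.9, Hyou1 from 16.66 to 72.24, Creld2 from 25.6 to 77.26, Dnajb11 from 38.4 to 77.52 and Dnajc3 from 86.27 to 329.8. Among degradation genes Sel1l ran from 33.9 to 70.68 CPM, Derl2 from 25.02 to 46.47 and Derl3 from 0.2362 to 3.883. Ddit3 ran from 22.76 CPM in melanotrope-like to 57.25 in macrophage-like cells, and Slc3a2 from 41.37 in somatotrope-like to 256.9 in stem-like cells. Trib3, a pseudokinase that restrains Atf4, and Chac1, which degrades glutathione, were low everywhere, with class means of at most 8.77 and 5.862 CPM.

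Across the 10 class means, the genes closest to Hspa5 among 3050 genes with a mean of at least 50 CPM were Ptp4a2 (Pearson r = 0.859), Sh3bgrl3 and Ctsb, and genes close to Atf4 included Tra2b (r = 0.934) and Nufip2 (r = 0.929). Within the module Atf4 went with Slc3a2 (r = 0.730), Ppp1r15a (r = 0.670) and Trib3 (r = 0.666), and against Sdf2l1 (r = -0.887). Hspa5 and Hsp90b1 were unrelated in this sense (r = 0.076). These are descriptions over 10 points on the log2(CPM + 1) scale that share libraries, depth and hormone content.

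For the diets, counts were summed per library and class and tested with edgeR's quasi-likelihood test, with Benjamini-Hochberg adjustment over all genes of the class and an adjusted p under 0.05 as the threshold. Per-library values in the rest of the text are scaled CPM, the CPM after TMM normalization within the class, and log2 differences are HFD minus CTRL. Of the 35 members, 28 to 34 passed the low-count filter depending on the class. In gonadotrope-like cells 2 of 32 tested members passed, where 1.88% of all 12735 genes passed. In the other 9 classes no member passed. The share of all genes that passed was 0.912% in lactotrope-like, 0.215% in corticotrope-like, 0.068% in thyrotrope-like, 0.0549% in somatotrope-like, 0.0501% in endothelial-like and 0.00771% in melanotrope-like cells, and 0% in the stem-like, mesenchymal-like and macrophage-like classes. Unadjusted p-values under 0.05 were counted as well. Somatotrope-like cells had 12 such members (18.6% of all genes), gonadotrope-like cells 8 (22.1%), lactotrope-like cells 5 (11%) and thyrotrope-like cells 5 (6.04%). Melanotrope-like cells had 3 (5.83%), stem-like cells 2 (6.54%), macrophage-like cells 2 (5.43%), corticotrope-like cells 1 (9.66%), mesenchymal-like cells 1 (3.56%) and endothelial-like cells 0 (3.64%). DESeq2 passed 6 members in somatotrope-like cells, 1 in gonadotrope-like cells and none in the other 8 classes. It passed 3.07% of 12592 genes in somatotrope-like and 4.77% of 4587 genes in gonadotrope-like cells. These shares count only genes to which DESeq2 gave an adjusted p, so they are not on the same base as those of edgeR. Whether the diet difference of a member differs between gonadotrope-like cells and other classes was not tested.

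**Figure D2:**
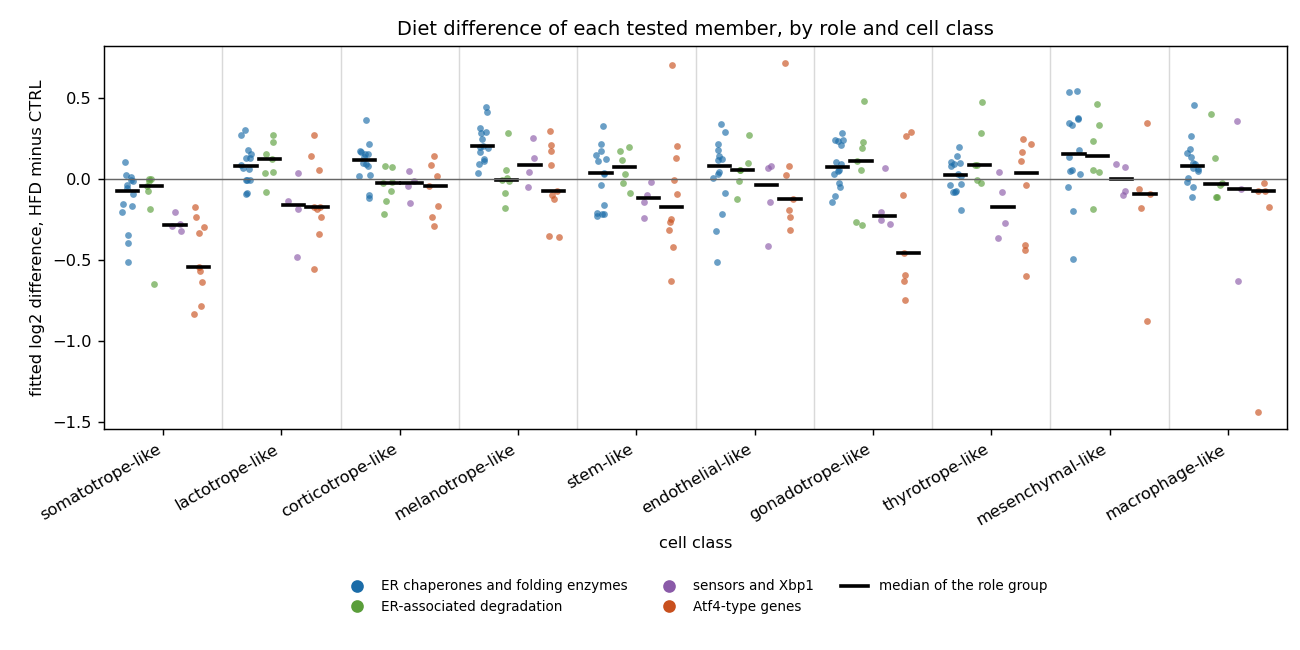
Fitted log2 difference (HFD minus CTRL) of every tested member, 1 point each, in 10 cell classes, coloured by role, with the median of each role group as a black bar. Atf4-type medians were lowest in somatotrope-like (-0.54) and gonadotrope-like cells (-0.46), and chaperone medians lay between -0.07 and 0.20.

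In gonadotrope-like cells both members that passed were Atf4-type genes and fell on HFD. Ppp1r15a (chr7:45522916-45526268) was at 116 and 102.6 scaled CPM in the CTRL libraries and at 61.52 and 68.31 in the HFD libraries. Both HFD libraries were below both CTRL libraries, and the difference was -0.75 (SE 0.10, adjusted p = 0.0145, edgeR). Atf4 (chr15:80255184-80257541) was at 92.03 and 102.2 scaled CPM on CTRL and at 68.9 and 72.18 on HFD, again without overlap, a difference of -0.46 (SE 0.10, adjusted p = 0.0494). Without HFD 1 neither passed (adjusted p = 0.0674 for Ppp1r15a and 0.211 for Atf4), and 0.431% of all genes passed. With the low copies of shared barcodes kept, Ppp1r15a passed (adjusted p = 0.0153) and Atf4 did not (0.0574), where 2.11% of all genes passed. Atf4 also missed the threshold without CTRL 2 (0.12), without HFD 2 (0.163), with the size factors of DESeq2 in edgeR (0.052), with the replicate number as a block (0.056), in DESeq2 (0.05), with classes built without the members (0.0509) and with putative doublets kept (0.0634).

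The other Atf4-type members of gonadotrope-like cells did not move as a block. Ddit3 (Chop, a factor of terminal stress) was at 27.4 and 31.46 scaled CPM on CTRL and at 33.05 and 37.74 on HFD, the opposite side from Atf4, with a difference of 0.29 (SE 0.13, adjusted p = 0.237). Asns had a difference of 0.27 (SE 0.16) and Slc3a2, the heavy chain of amino acid carriers, one of -0.10 (SE 0.15). Chac1 and Sesn2 were fitted below 0, between Ppp1r15a (-0.75) and Atf4 (-0.46). Both were low, with a mean of 3.154 CPM for Sesn2 here and of at most 5.862 CPM for Chac1 in any class. Of the 7 tested Atf4-type members 5 were thus below 0 and 2 above. The median over the 7 was -0.46, the value of Atf4, against 0.00 over all genes of the class. It was -0.27 with putative doublets kept, -0.30 without CTRL 2, -0.19 without HFD 1 and -0.15 without HFD 2.

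No chaperone or degradation member passed in gonadotrope-like cells. Herpud1, the carrier of both motifs printed above, was at 79.21 and 81.53 scaled CPM on CTRL and at 98.9 and 123 on HFD, a difference of 0.48 (SE 0.11, adjusted p = 0.0639). It passed in 2 of 14 alternatives, among them with the low copies kept (adjusted p = 0.0424), and without HFD 2 the difference was 0.30 (adjusted p = 0.301). Pdia6 was at 495.2 and 538.1 on CTRL and 617.8 and 638.4 on HFD, a difference of 0.28 (SE 0.07, adjusted p = 0.072). Hspa5 differed by 0.03 (SE 0.06) and Hsp90b1 by 0.05 (SE 0.06). Of the 14 chaperones 8 had both HFD libraries above both CTRL libraries (27.3% of all genes did) and 1 had both below (26.6%). The chaperone median of 0.07 became -0.06 without TMM scaling, so its sign depended on the scaling. It lay slightly above the median of all genes both with scaling (0.00) and without it (-0.13). Without scaling 9 of 14 chaperones and 4 of 7 degradation members were lower on HFD, where 67% of all genes were.

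**Figure D3:**
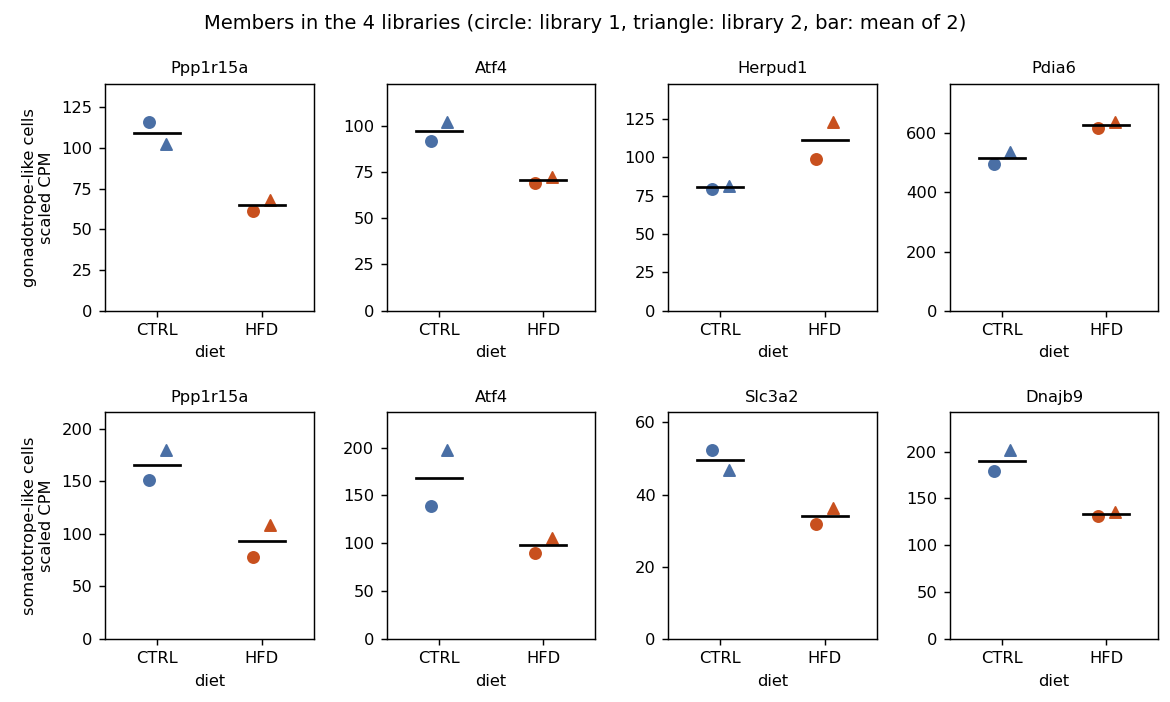
Scaled CPM in each library (circles for library 1, triangles for library 2, black bars for the mean of 2) for 4 members in gonadotrope-like cells (upper row) and 4 in somatotrope-like cells (lower row). Ppp1r15a and Atf4 were lower in both HFD libraries in both classes, while Herpud1 and Pdia6 were higher in the HFD libraries of gonadotrope-like cells.

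Other genes of the same pathways were counted in gonadotrope-like cells from lists chosen with earlier results of these data known. Among 46 further genes of ER folding, translocation and glycosylation, 3 rose (Fkbp11, Ddost and Sec11c, by 0.55, 0.38 and 0.42) and none fell, where 1.88% of all genes changed in either direction. Among 43 tested of 48 further Atf4 and eIF2α genes, 2 rose (Nupr1 by 1.05 and Mthfd2 by 0.68) and 3 fell (Atf3 by 1.88, Vldlr by 0.73 and Eprs by 0.46). Immediate-early genes, which respond within minutes to stimulation or tissue dissociation, also differed between the diets: 12 of 25 fell, among them Fos by 0.68 and Jun by 0.84, and their median was -0.82. Atf3 is on both the Atf4 list and the immediate-early list and is counted in each. Of 12 cytosolic heat shock genes 4 fell, Dnajb1 most, by 1.20. The immediate-early list summed to 5605 and 5694 CPM on CTRL and 3329 and 3475 CPM on HFD. Their part in the lower Ppp1r15a and Atf4 was not tested.

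In somatotrope-like cells the Atf4-type members had the lowest median of the 4 role groups, -0.54 against 0.00 over all genes, but no member passed. That median was -0.25 without CTRL 2 and -0.36 without HFD 2. Ppp1r15a was at 151.5 and 179.5 scaled CPM in the CTRL libraries and at 77.96 and 107.9 in the HFD libraries, a difference of -0.83 (SE 0.16, adjusted p = 0.101, edgeR). Atf4 was at 138.9 and 197.3 on CTRL and at 89.59 and 105.8 on HFD, a difference of -0.78 (SE 0.17, adjusted p = 0.122). Both HFD libraries lay below both CTRL libraries for each gene, although the CTRL libraries also stood well apart from each other. Slc3a2 was at 52.32 and 46.89 on CTRL and at 31.9 and 36.16 on HFD, a difference of -0.54 (SE 0.10, adjusted p = 0.0988). Ddit3, whose fitted difference was above 0 in gonadotrope-like cells, was here at 30.37 and 33.7 on CTRL and 25.05 and 25.73 on HFD, a difference of -0.34 (SE 0.09, adjusted p = 0.154).

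Chaperones of somatotrope-like cells were divided. Dnajb9, a cochaperone of BiP, was at 179.1 and 201.5 scaled CPM on CTRL and at 131.2 and 135.5 on HFD, a difference of -0.51 (SE 0.09, adjusted p = 0.0984). Hyou1, which helps BiP release its nucleotide, differed by -0.39 (SE 0.08, adjusted p = 0.103) and Hspa5 by -0.34 (SE 0.09, adjusted p = 0.147). Hsp90b1 differed by -0.01 (SE 0.08) and Dnajc3 by 0.01 (SE 0.08), with overlapping libraries. These 6 members (Ppp1r15a, Atf4, Slc3a2, Dnajb9, Hyou1 and Hspa5) were the ones that passed in DESeq2. Of 34 tested members 21 had both HFD libraries below both CTRL libraries, where 26.6% of all genes did, and none had both above, where 25.7% did.

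TMM scaling shifted the somatotrope-like comparison as a whole: without it the median of all genes was 0.16 rather than 0.00 (-0.13 in gonadotrope-like cells, and within 0.083 of 0 in the other 8 classes). With scaling 29 of 34 members were fitted below 0 and 5 above, where 49.6% of all genes were above. Without scaling 20 of 34 members were below 0, where 27.3% of all genes were below. All 9 tested Atf4-type members and all 4 sensors were below 0 under both, whereas the chaperones went from 11 of 14 to 5 of 14. The chaperone median of -0.07 became 0.09, so its sign depended on the scaling. It lay slightly below the median of all genes both with scaling (0.00) and without it (0.16).

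The somatotrope-like class held 3 clusters in different proportions by diet. Cluster 1 (led by Ghrhr, Gh and Car10) had 173 and 191 cells in the CTRL libraries and 1216 and 1398 in the HFD libraries, while clusters 2 and 3 held most CTRL cells. Hemoglobin and other red-blood-cell markers in the class summed to 530.2 and 81.7 CPM on CTRL and 1153 and 2075 CPM on HFD, and were among the leading genes of cluster 1; their part in the result was not tested. Mean Atf4 was 72.34 CPM in cluster 1, 111.2 in cluster 2 and 196 in cluster 3, and mean Ppp1r15a was 51.1, 109.5 and 215.3 CPM. The clusters that differed in size between the diets thus also differed in these genes.

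Within single clusters the Atf4-type medians after scaling were -0.23 in cluster 1, -0.55 in cluster 2 and -0.27 in cluster 3. Without scaling 4 of 8 Atf4-type members were lower on HFD in cluster 1, 7 of 8 in cluster 2 and 5 of 8 in cluster 3. In cluster 2 alone 4 members passed, where 4.6% of all genes did: Slc3a2 fell by 0.69 (adjusted p = 0.0102), Atf4 by 0.65 (adjusted p = 0.0422), Dnajb9 by 0.48 (adjusted p = 0.0227) and Hyou1 by 0.48 (adjusted p = 0.0408). No member passed in cluster 1 (0.401% of all genes) or cluster 3 (0.169%), and fits within single clusters were added after seeing the data. Ppp1r15a differed by -0.64 (SE 0.17) in cluster 1, -0.51 (SE 0.13) in cluster 2 and -0.14 (SE 0.11) in cluster 3, each smaller than in the whole class. Before scaling, Ppp1r15a in cluster 3 was at 195.3 and 229.2 CPM on CTRL and 202.5 and 234.2 CPM on HFD, so its direction there came from the scaling. Likewise Hspa5 in cluster 2 was at 484.4 and 526.1 CPM on CTRL and 551.9 and 530.7 CPM on HFD before scaling, yet its fitted difference was -0.19.

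**Figure D4:**
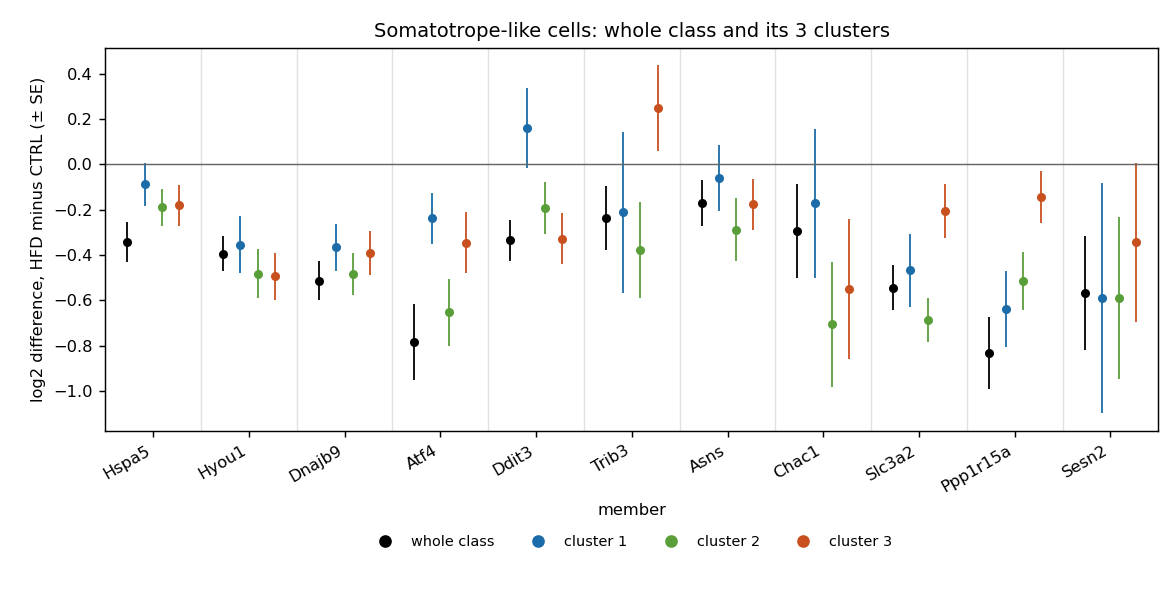
Fitted log2 difference (HFD minus CTRL, bars ± SE) of 11 members in the whole somatotrope-like class (black) and in clusters 1, 2 and 3 alone (coloured). Ppp1r15a lay at -0.83 in the whole class and at -0.64, -0.51 and -0.14 in clusters 1, 2 and 3 after TMM scaling (in cluster 3 it was not lower on HFD before scaling), while Hyou1 and Dnajb9 were below 0 in all 3.

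Immediate-early genes were lower in somatotrope-like cells as well. Of 25 listed, 4 fell (Btg2 by 1.42, Klf4 by 1.49, Gadd45b by 2.05 and Csrnp1 by 1.83), with a list median of -1.30, and the 12 heat shock genes had a median of -0.56 with none passing. Among 46 further ER genes and 44 tested of 48 further Atf4 genes none passed. The part of these stress genes in the members' values was not tested.

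In lactotrope-like cells Ern1 had the smallest p of the members. Ern1, the IRE1 sensor, was at 33.74 and 32.08 scaled CPM on CTRL and at 23.05 and 24.09 on HFD, a difference of -0.48 (SE 0.11, adjusted p = 0.0781, edgeR). Sdf2l1 was at 149 and 142.7 on CTRL and 172.7 and 179.1 on HFD, a difference of 0.27 (SE 0.09, adjusted p = 0.268). Ddit3 was at 38.54 and 37.61 on CTRL and 45.43 and 46.31 on HFD, the opposite side from somatotrope-like cells. Atf4 differed by -0.19 (SE 0.10) and Hspa5 by -0.01 (SE 0.09). The libraries of the diets did not overlap for Ern1, Sdf2l1, Ddit3 and Atf4 but did for Hspa5. The share of all genes without overlap is not given for this class. In somatotrope-like cells 25.7% of all genes had both HFD libraries above both CTRL libraries and 26.6% had both below.

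The diet differences of lactotrope-like and somatotrope-like cells were then compared directly, by the interaction of diet and class in a fit that kept each library as a block. No member of 34 passed, where 0.69% of all genes did, but 16 had an unadjusted p under 0.05 with a more positive difference in lactotrope-like cells (8.19% of all genes) and none with a more negative one (6.78%). Ddit3 came nearest, with an interaction of 0.60 (SE 0.11, adjusted p = 0.0519). Atf4 followed at 0.58 (SE 0.13, adjusted p = 0.0907), Sdf2l1 at 0.42 (SE 0.09, adjusted p = 0.0954) and Hspa5 at 0.33 (adjusted p = 0.101). Of 34 members 32 were above 0, where 50.5% of all genes were. Immediate-early and heat shock genes moved with them: 6 of 25 immediate-early genes passed in the same direction (Dusp1 at 1.94, Gadd45b at 1.87, Csrnp1 at 1.71, Btg2, Egr1 and Junb), as did 1 of 12 heat shock genes (Hspb1 at 1.18), and their part in the members' values was not tested. The role medians were 0.31 for Atf4-type genes, 0.22 for degradation genes, 0.20 for chaperones and 0.12 for sensors. This fit was not run without TMM scaling, and the differing cluster proportions of both classes enter it. Lactotrope-like cells held cluster 0 (601 and 1202 cells on CTRL, 763 and 598 on HFD) and cluster 5 (322 and 634 on CTRL, 517 and 570 on HFD). Mean Atf4 was 160.8 CPM in cluster 0 and 100.5 in cluster 5, and mean Ppp1r15a was 106.9 and 52.54 CPM. Immediate-early genes summed to 9313 and 2682 CPM there. The part of these proportions was not tested.

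**Figure D5:**
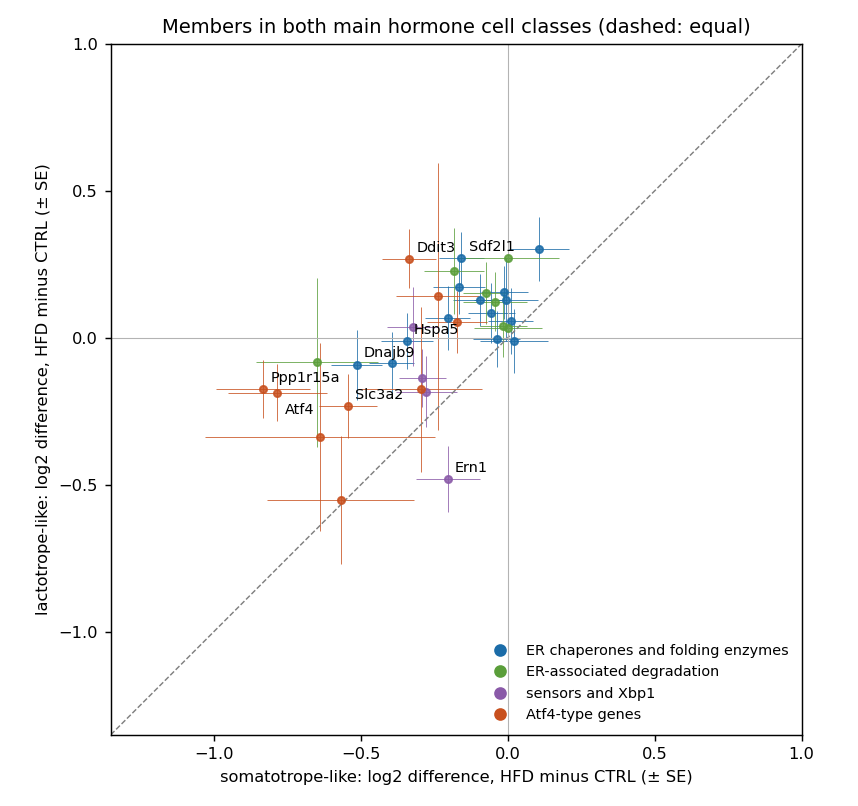
Fitted log2 difference (HFD minus CTRL, bars ± SE) of each tested member in somatotrope-like cells (x axis) and lactotrope-like cells (y axis), coloured by role, with a dashed line of equality. Atf4 lay at -0.78 in somatotrope-like and -0.19 in lactotrope-like cells, and Ddit3 at -0.34 and 0.27.

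In the other 7 classes no member passed, and the members with the smallest p-values differed from class to class. Melanotrope-like cells (melanocyte-stimulating hormone) had all 14 chaperones fitted above 0, where 48.7% of all genes were, with a median of 0.20. Sdf2l1 there was at 81.19 and 71.49 scaled CPM on CTRL and 97.51 and 104.7 on HFD, a difference of 0.41 (SE 0.13, adjusted p = 0.832). Pdia4, a disulfide isomerase, was at 93.5 and 97.81 on CTRL and 146.1 and 115.7 on HFD, a difference of 0.44 (SE 0.14), and 0.28 without HFD 1. Lactotrope markers in melanotrope-like cells summed to 7403 and 1793 CPM on CTRL and 513.7 and 1035 CPM on HFD, and macrophage markers to 72.21 CPM in HFD 2 against 7.333 to 12.72 CPM in the other libraries; their part was not tested. Thyrotrope-like cells had Atf4 at 132.8 and 123 on CTRL and 97.39 and 95.98 on HFD, a difference of -0.41 (SE 0.11, adjusted p = 0.5). All 25 immediate-early genes were fitted below 0 in this class, with a median of -0.83 against -0.001 over all genes. Of these 2 passed (Egr1 at -0.79 and Socs3 at -1.11), where 0.068% of all genes did. All 12 heat shock genes were also fitted below 0, with a median of -0.21. The part of these genes in the members' differences was not tested. Somatotrope markers in thyrotrope-like cells summed to 71880 and 13800 CPM on CTRL and 25280 and 18490 CPM on HFD. Corticotrope markers there summed to 11940 and 4358 CPM on CTRL and 5265 and 6134 CPM on HFD. Lactotrope markers there summed to 13760 and 9774 CPM on CTRL and 7576 and 4660 CPM on HFD. Red-blood-cell markers there summed to 79.5 and 33.08 CPM on CTRL and 6393 and 1226 CPM on HFD. The part of these markers in the differences of this class was not tested. Lactotrope markers in corticotrope-like cells (adrenocorticotropic hormone) summed to 3042 and 2802 CPM on CTRL and 530.9 and 1001 CPM on HFD. Their part was not tested. In corticotrope-like cells Dnajb11 was at 44.28 and 55.44 on CTRL and 63.35 and 65.03 on HFD, a difference of 0.36 (SE 0.13, adjusted p = 0.422). It was 0.21 without CTRL 1, and 0.54 without CTRL 2, where it passed (adjusted p = 0.0288, edgeR).

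Slc7a11 could be tested in stem-like and macrophage-like cells and had differences of opposite sign there. In macrophage-like cells it was at 28.13 and 29.06 scaled CPM on CTRL and at 10.74 and 10.26 on HFD, a difference of -1.43 (SE 0.36, adjusted p = 0.874). In stem-like cells it was at 19.73 and 16.53 on CTRL and 24.98 and 33.89 on HFD, a difference of 0.70 (SE 0.20, adjusted p = 0.762), and 0.46 without HFD 2. The libraries of the diets did not overlap in either class, but the share of all genes without overlap is not given for these classes. The difference between the classes was not tested. Mesenchymal-like cells had Pdia6 at 188.6 and 187.1 on CTRL and 281.6 and 265.7 on HFD, a difference of 0.54 (SE 0.17, adjusted p = 1). Endothelial-like cells had Pdia4 at 69.17 and 63.12 on CTRL and 90.06 and 77.15 on HFD, a difference of 0.34 (SE 0.16, adjusted p = 1).

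The remaining members among the 3 smallest p-values of each class were as follows, with adjusted p-values of 0.29 to 1 in edgeR. Pdia4 differed by 0.30 (SE 0.11) in lactotrope-like, 0.32 (SE 0.12) in stem-like and 0.21 (SE 0.13) in corticotrope-like cells. Without HFD 1 these values were 0.16, 0.27 and 0.08, and without HFD 2 the corticotrope-like value was 0.35. Ddit3 differed by -0.24 (SE 0.13) in corticotrope-like cells and Derl1 by 0.28 (SE 0.13) in melanotrope-like cells. Xbp1 and Ppp1r15a differed by -0.36 (SE 0.11) and -0.60 (SE 0.22) in thyrotrope-like cells, the latter with overlapping libraries. Ppp1r15a there was -0.23 without CTRL 1, -0.91 without HFD 1 and -0.28 without HFD 2. Sesn2 differed by -0.63 (SE 0.29) in stem-like cells and Trib3 by 0.71 (SE 0.38) in endothelial-like cells. Hsp90b1 differed by 0.29 (SE 0.16) in endothelial-like and 0.37 (SE 0.20) in mesenchymal-like cells, and Dnajb11 by 0.53 (SE 0.25) in the latter, with 0.24 without CTRL 1 and 0.95 without CTRL 2. In macrophage-like cells Sdf2l1 differed by 0.46 (SE 0.18) and Atf6 by 0.36 (SE 0.18).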

How the data were processed

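Pituitary cells of 4 libraries were measured with 10x Genomics 3' v3.1 chemistry, per the labels' protocols. The deposited matrices hold UMI counts per gene and cell. The submitters' processing notes name Cell Ranger 6.1.2, Seurat 4.3 and mm10 without roles, and the sources used here do not give the annotation or strand setting. Cells under 500 genes or over 20% mitochondrial UMIs were dropped, low copies of shared barcodes and 1321 putative doublets (scored against simulated doublets) were left out, and cells were clustered with scanpy 1.11.5 (2000 variable genes, 30 components, Leiden resolution 0.8). Clusters were named from markers. 8 hemoglobin genes were left out of the variable genes after the clusters were seen. Counts summed per library and class were tested with edgeR 4.0.16 (TMM, filterByExpr, R 4.3.3), and DESeq2 1.42.0 was an alternative. The scripts were tested on simulated data. Replicates of a diet differed by more than sampling noise. By the rule for named genes, levels per library are given for the 2 members of highest mean CPM per role, other members by range, and diet differences for members that passed and the 3 of smallest p per class; other members named were chosen after their values were seen. The members and lists were chosen with earlier results of these data known. Alternatives covered scaling, filters, doublets, shared barcodes, pairing and each library left out. Ddit3 has 2 identifiers, 1 without counts.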

Additional observations from a re-analysis of the deposited data

How the results depend on the processing

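No named difference that passed changed sign under the alternatives run, but some role medians did. Of the named differences under alternatives, 440 kept their side of the threshold, 23 passed newly and 10 no longer passed. Counts of passing members changed as follows. With DESeq2 they were 6 in somatotrope-like and 1 in gonadotrope-like cells. With no low-count filter they were 1 in lactotrope-like, 1 in stem-like, 1 in thyrotrope-like and 5 in gonadotrope-like cells, and 6 for the interaction. Over all genes that setting passed 588, 447, 181 and 1345 genes in these classes and 763 for the interaction. In gonadotrope-like cells 1 passed with RLE size factors, 1 with putative doublets kept and 1 with classes built without the members. Over all genes these fits passed 211, 266 and 226 genes. Without TMM scaling 3 members passed there (Atf4, Ppp1r15a and Xbp1), where 816 of all genes did. For the interaction 1 passed with the stricter cell filter and 1 with hormone genes left out, and in somatotrope-like cluster 2 alone 4 passed. Over all genes these fits passed 131, 136 and 594 genes. With each library left out in turn, where the lone library of a diet is assumed to vary like the others, counts ranged from 0 to 1 in somatotrope-like, corticotrope-like and thyrotrope-like cells and for the interaction, and from 0 to 2 in gonadotrope-like cells.

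With the replicate block 1 member passed in gonadotrope-like and 1 in thyrotrope-like cells, and no other class changed its count. Over all genes 232 and 77 passed in these 2 classes. The numbers were not taken as a pairing: correlations of same-numbered libraries ran from -0.179 in somatotrope-like to 0.352 in endothelial-like cells. With the numbers crossed 3 members passed in somatotrope-like cells, where 324 of all genes did, against 8 of all genes in the main fit.

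Chaperone medians without TMM scaling were 0.087 in somatotrope-like, 0.035 in corticotrope-like, -0.064 in gonadotrope-like and 0.065 in macrophage-like cells. Atf4-type medians without it were -0.383 in somatotrope-like, -0.124 in corticotrope-like, -0.158 in melanotrope-like and -0.591 in gonadotrope-like cells. All genes of these classes shifted too, to medians of 0.158, -0.083, -0.078 and -0.132 without it, and of -0.015 in macrophage-like cells. With no low-count filter the chaperone median was -0.064 in somatotrope-like and 0.103 in macrophage-like cells, and the Atf4-type median -0.259 in gonadotrope-like and -0.105 in macrophage-like cells. With putative doublets kept, the Atf4-type median was -0.267 in gonadotrope-like and -0.106 in macrophage-like cells, and the chaperone median 0.037 in macrophage-like cells. In somatotrope-like clusters 1, 2 and 3 the chaperone medians were -0.097, -0.058 and -0.041, and the Atf4-type medians were -0.225 in cluster 1 and -0.267 in cluster 3. The cause of these changes was not tested.

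With each library left out, chaperone medians ranged from -0.116 to -0.065 in somatotrope-like, -0.038 to 0.162 in lactotrope-like, 0.073 to 0.139 in corticotrope-like, 0.069 to 0.187 in endothelial-like, 0.042 to 0.119 in gonadotrope-like and 0.041 to 0.141 in macrophage-like cells. Atf4-type medians ranged from -0.547 to -0.253 in somatotrope-like, -0.201 to 0.130 in corticotrope-like, -0.133 to 0.052 in melanotrope-like, -0.341 to 0.209 in stem-like, -0.445 to -0.148 in gonadotrope-like, -0.147 to 0.033 in thyrotrope-like and -0.175 to -0.119 in macrophage-like cells. Medians of the lactotrope-like chaperones and of the corticotrope-like, melanotrope-like, stem-like and thyrotrope-like Atf4-type members therefore crossed 0. With 2 libraries per diet and 516 cells in the smallest class, low members such as Trib3 and Chac1 were measured with large errors.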
